A study of Mus musculus with 10 samples.

Results

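Transcripts of glucose transporters and glycolytic enzymes were examined in CD4+ T cells from the spleens of DBA/1 mice, an inbred strain. The genes were chosen by name, with earlier results of these data known. They were the glucose transporters Slc2a1 and Slc2a3, the hexokinases Hk1 and Hk2, and the later enzymes Pfkp, Aldoa, Tpi1, Pgk1, Pgam1 and Ldha. All probe sets annotated with one of these 10 symbols were taken, and the one brightest on average across the 10 arrays was the main probe set of its gene. This gave 20 probe sets of 9 genes, out of 17097 genes with a probe set of their own. The probe set listed for Pgam1 is also listed for the pseudogene Pgam1-ps1, so that no value is given for Pgam1. All 9 genes passed the filter on dim signals, which left 11037 genes tested, and all 9 lay above the median of the array on each of the 10 arrays.

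Mice were injected into the abdominal cavity with 500000 immature dendritic cells on each of 3 occasions, 7, 5 and 3 days before death. From these injected mice, CD49b+ cells (n = 3), CD25+ cells (n = 3) and CD4+ cells (n = 2) were sorted, and CD4+ cells of naive mice, which got no cells, were the other group (n = 2). CD49b is the integrin alpha 2 chain, encoded by Itga2, and CD25 is the alpha chain of the interleukin 2 receptor (gene Il2ra). All mice were DBA/1, and no age or sex is used here. Cells of several mice were pooled before sorting, and nothing states that the replicates of a group are separate pools, so each p-value measures only the spread of the deposited samples, part or all of which could be technical. The sources used here do not say whether the CD4+ group still held CD49b+ or CD25+ cells. The 4 comparisons were CD49b+ cells against CD4+ cells of injected mice, CD25+ cells against the same CD4+ cells, CD49b+ cells against CD25+ cells, and CD4+ cells of injected against naive mice. The first 2 comparisons share their CD4+ arrays.

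Glucose enters T cells through facilitative transporters of the Slc2a family, and hexokinase traps it in the cell by phosphorylation. Phosphofructokinase commits it to glycolysis, aldolase and triosephosphate isomerase make glyceraldehyde 3-phosphate, phosphoglycerate kinase makes ATP, and lactate dehydrogenase turns pyruvate into lactate with the return of NAD+. Activated and dividing T cells are known for a high rate of glycolysis with lactate release. Several genes of this pathway are known targets of the hypoxia-inducible factor HIF-1, which binds a short core sequence, ACGTG or GCGTG, next to their starts.

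The promoters below are examples of genes with both outcomes described further on. Slc2a1, Pgk1 and Ldha had higher transcript levels in CD49b+ than in CD25+ cells, whereas the differences of Hk2 and Tpi1 between those cells were not called. Each sequence is the 250 bases before the gene's start, from RefSeq on build GRCm38.p6, 5′ to 3′ on the strand of the gene. Capitals mark ACGTG or GCGTG on either strand, and neighbouring matches on opposite strands overlap where they form CACGTG, the sequence known as an E-box that Myc can bind.
Slc2a1 (chr4:119108495-119108744, plus strand): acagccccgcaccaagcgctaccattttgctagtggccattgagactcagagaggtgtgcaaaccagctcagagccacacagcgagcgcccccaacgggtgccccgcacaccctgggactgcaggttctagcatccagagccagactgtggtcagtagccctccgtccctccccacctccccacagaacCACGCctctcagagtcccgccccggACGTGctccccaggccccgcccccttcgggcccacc
Pgk1 (chrX:106186850-106187099, plus strand): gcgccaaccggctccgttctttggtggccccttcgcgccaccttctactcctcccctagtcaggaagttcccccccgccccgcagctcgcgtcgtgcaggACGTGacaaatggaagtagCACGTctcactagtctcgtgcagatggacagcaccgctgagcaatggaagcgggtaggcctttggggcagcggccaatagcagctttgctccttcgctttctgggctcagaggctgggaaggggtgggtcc
Ldha (chr7:46845554-46845803, plus strand): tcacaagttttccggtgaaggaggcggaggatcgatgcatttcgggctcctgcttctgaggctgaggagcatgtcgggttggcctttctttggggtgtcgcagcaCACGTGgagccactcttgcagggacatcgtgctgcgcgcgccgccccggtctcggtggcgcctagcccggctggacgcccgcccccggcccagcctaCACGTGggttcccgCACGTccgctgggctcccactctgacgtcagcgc
Hk2 (chr6:82774455-82774704, minus strand): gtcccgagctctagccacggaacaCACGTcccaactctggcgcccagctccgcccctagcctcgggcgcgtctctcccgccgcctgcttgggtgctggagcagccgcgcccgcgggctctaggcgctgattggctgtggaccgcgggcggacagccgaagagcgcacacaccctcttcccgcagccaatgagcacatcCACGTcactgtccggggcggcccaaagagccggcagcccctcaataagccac
Tpi1 (chr6:124814159-124814408, minus strand): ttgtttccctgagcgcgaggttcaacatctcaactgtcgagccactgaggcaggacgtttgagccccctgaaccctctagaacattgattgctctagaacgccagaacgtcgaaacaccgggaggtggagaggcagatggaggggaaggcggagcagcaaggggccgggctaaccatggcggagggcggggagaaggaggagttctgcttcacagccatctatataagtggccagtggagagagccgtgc
The Ldha window shown held 5 matches, of which 2 pairs overlapped in CACGTG, while a second Ldha window in RefSeq held 1 match and no CACGTG. Slc2a1, Pgk1 and Hk2 held 2 matches each and Tpi1 held 0. Among the genes not shown, Pfkp and Pgam1 held 3 each, Hk1 held 0 and 3 in its 2 windows, and Aldoa held 0, 1 and 1 in its 3 windows, so the number of matches did not divide the genes by whether the subsets differed. RefSeq gave 13 such windows for 9 of the 10 genes, all but Slc2a3. A match to ACGTG or GCGTG lay in 10 of the 13, against 38.6% of all 32851 windows in the table. ACGTG alone lay in 7 of the 13, against 16.6% of all windows, and GCGTG alone in 5, against 28.2%. CACGTG lay in 1 of the 13, against 6.0% of all windows. The windows of 1 gene can overlap. A match is a description of these letters, and binding was not measured.

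The sort labels were checked first. Il2ra was 6.26, 6.37 and 6.23 in CD49b+ cells, 9.09, 8.89 and 8.51 in CD25+ cells and 4.18 and 4.16 in CD4+ cells of injected mice, in the log2 units of the deposited values. Itga2 transcript did not separate the CD49b+ arrays, at 5.59, 5.97 and 5.77 against 5.80 and 5.85 in CD4+ cells of injected mice (log2 difference -0.05 ± 0.11, SE, limma adjusted p = 0.717), and was higher in CD49b+ than in CD25+ cells (0.31 ± 0.10, adjusted p = 0.0349). Foxp3 averaged 6.45 in CD49b+, 8.25 in CD25+, 4.64 in injected CD4+ and 4.92 in naive CD4+ cells. Cd4 averaged 7.89, 7.59, 7.55 and 7.72 in the same order, and Cd3e 9.62, 9.45, 9.47 and 9.46. Markers of other cells were mixed. Those above the median of at least 1 array numbered 5 of 8 for B cells, 8 of 12 for myeloid and dendritic cells, 8 of 10 for natural killer cells, 5 of 8 for platelets, 3 of 8 for neutrophils, 3 of 5 for erythroid cells and 2 of 5 for CD8 T cells. Ms4a1 (B cells), Itgam (myeloid cells), S100a8 (neutrophils), Ppbp (platelets) and Cd8b1 (CD8 T cells) lay under it on all 10 arrays. Other markers differed between groups, and those given here were picked after their values were seen. H2-Aa, a class II antigen-presenting chain, averaged 7.10 ± 0.48 in CD49b+ cells, 10.73 ± 0.42 in CD25+ cells, 9.32 ± 0.26 in CD4+ cells of injected mice and 11.03 ± 0.10 in naive ones (SD). Fcer1g, an Fc receptor chain of myeloid cells, averaged 4.68, 7.20, 5.30 and 6.25 in the same groups. Itgb3, a platelet integrin chain, averaged 7.24, 5.85, 6.42 and 6.29, and Crtam of the CD8 T cell list 5.42, 5.61, 7.33 and 7.29. Other members did not all follow these. Of 5 platelet markers tested, 1 was called higher and 0 lower in CD49b+ against CD4+ cells of injected mice (limma adjusted p under 0.05). Of 8 myeloid and dendritic cell markers tested, 2 were called higher and 3 lower in CD25+ against those CD4+ cells. Of all genes tested, 29.9% and 20.8% were called higher and 23.5% and 17.8% lower in these comparisons. Itgax of the myeloid list averaged 5.58, 5.24, 6.41 and 7.53. The 8 B cell markers with a probe set averaged 5.11 to 5.28 on the CD49b+ arrays, 5.90 to 6.09 on the CD25+ arrays, 5.55 to 5.74 on the CD4+ arrays of injected mice and 6.14 to 6.15 on the naive ones, and H2-Aa was among them. The 12 myeloid and dendritic cell markers averaged 4.57 to 4.65, 4.83 to 4.98, 5.0 to 5.02 and 5.33 to 5.48 on the CD49b+, CD25+, injected CD4+ and naive CD4+ arrays. The 10 natural killer cell markers averaged 5.06 to 5.28, 4.68 to 4.86, 4.91 to 4.93 and 5.01 to 5.05 on the same groups. Members of this list moved in opposite ways. Of 7 tested, 3 were called higher and 2 lower in CD49b+ against CD4+ cells of injected mice. Gzma averaged 8.22, 5.72, 4.24 and 4.09 on the same groups, Prf1 4.67, 4.66, 5.77 and 5.99, and Eomes 5.55, 5.75, 6.46 and 6.76. Array medians also moved with the groups, at 4.61 to 4.62 for CD49b+, 4.64 to 4.65 for CD25+ and 4.79 to 4.81 for the 4 CD4+ arrays. The 3′ minus 5′ signal of the Gapdh control probes, a measure of RNA integrity, was 0.23 to 0.69 on the CD49b+ arrays, 0.37 to 0.60 on the CD25+ arrays, 0.13 and 0.26 on the CD4+ arrays of injected mice and -0.01 and 0.06 on the naive ones. For the actin control probes it was 0.44 to 0.55, 0.63 to 0.67, 0.50 and 0.56, and 0.42 and 0.50 in the same order. By actin, the CD49b+ arrays overlapped the CD4+ ones. The part of these values in the results below was not tested.

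All 9 genes were called higher in CD49b+ cells than in CD4+ cells of injected mice, by a median of 0.75 on the log2 scale. They ranged between 0.52 for Slc2a1 and 1.80 for Slc2a3. Genes were called at an adjusted p under 0.05 by limma, and in this comparison 29.9% of all genes tested were called higher and 23.5% lower, with a median difference of 0.03. In CD25+ cells against the same CD4+ cells, 6 of the 9 were called higher and 0 lower, with a median of 0.40, where 20.8% of all genes were called higher and 17.8% lower. The 3 not called were Slc2a1, Pgk1 and Ldha. In CD49b+ against CD25+ cells, 4 of the 9 were called higher, namely Slc2a1, Pfkp, Pgk1 and Ldha, and 0 lower, with a median of 0.25, where 17.5% of all genes were called higher and 12.4% lower. With each array centred on its median, which moves the median of all genes up by 0.19 and 0.16 in the comparisons with CD4+ cells, 78.3% and 78.6% of calls were higher for CD49b+ and CD25+ cells against CD4+ cells, instead of 56.0% and 53.9%. The groups did not overlap for 9 of 9 genes in CD49b+ against CD4+ cells, where 70.3% of all genes tested did not overlap, for 6 of 9 in CD25+ against CD4+ cells (58.9% of all genes) and for 6 of 9 in CD49b+ against CD25+ cells (41.6%). In these bulk samples, fewer cells of a type and less RNA per cell cannot be told apart.

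**Figure D1:**
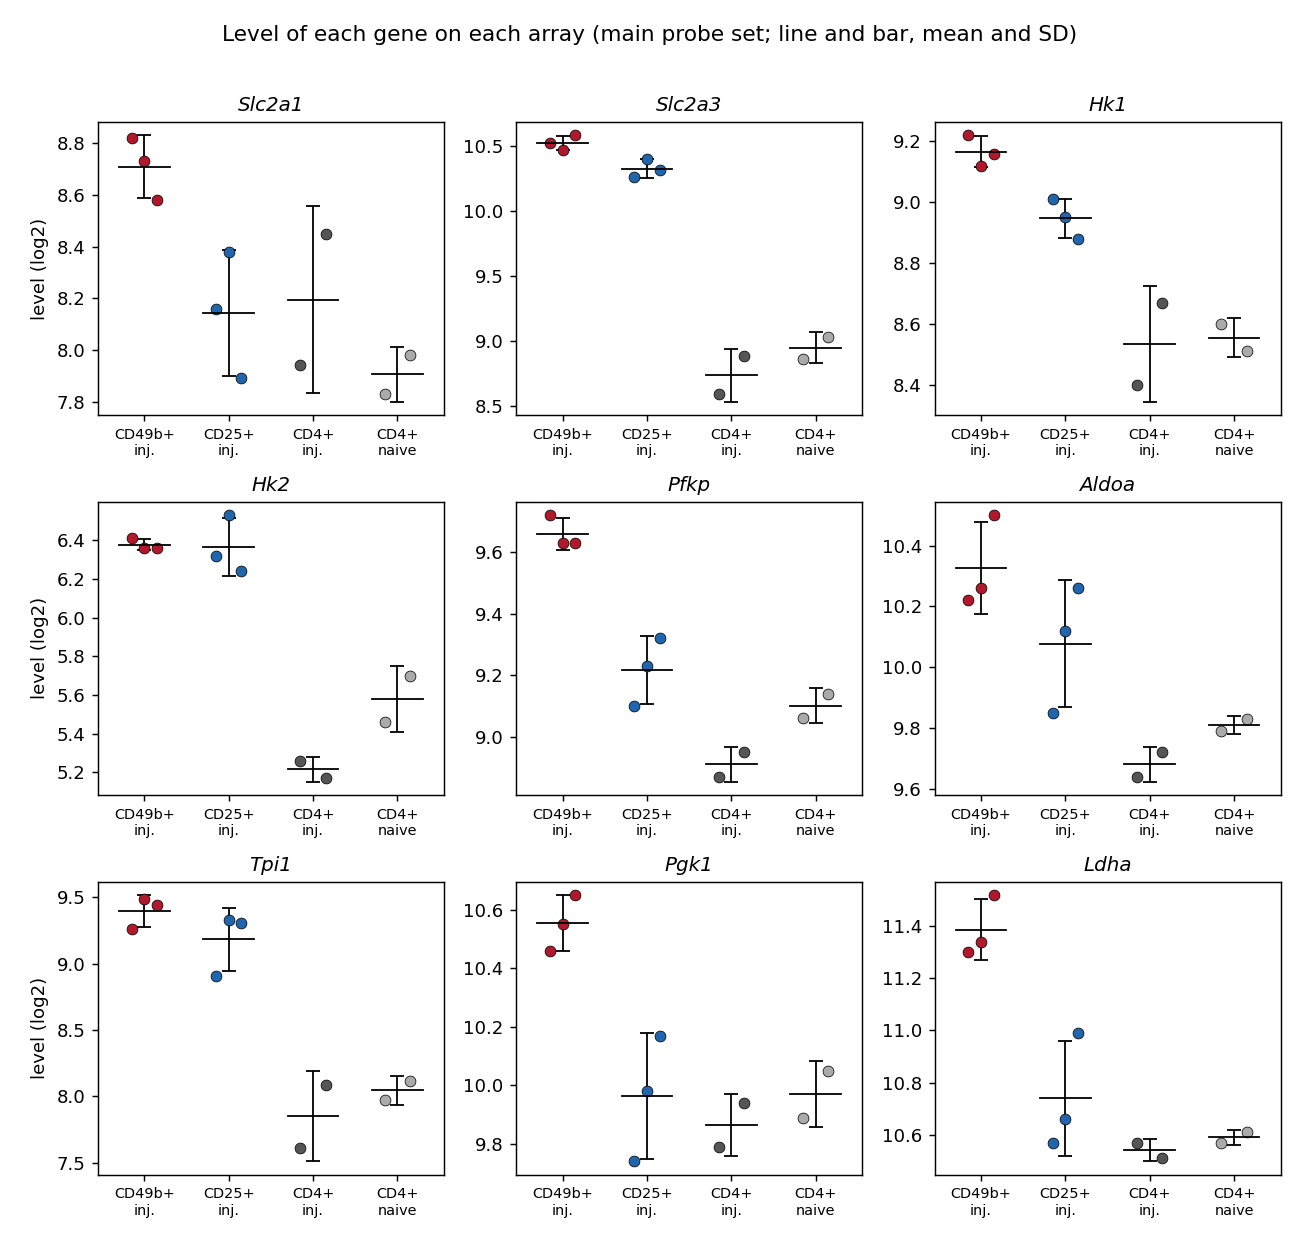
Level of the main probe set of each gene (deposited log2 value, vertical axis, not starting at 0) on each of the 10 arrays, by group, with the mean and SD of the group. For Slc2a3, Hk2 and Tpi1 the CD49b+ and CD25+ points lie together above the CD4+ points, whereas for Slc2a1, Pgk1 and Ldha the CD25+ points lie near the CD4+ points.

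Slc2a3 encodes GLUT3, a high-affinity glucose transporter. Its level was 10.52, 10.47 and 10.58 in CD49b+ cells, 10.26, 10.40 and 10.31 in CD25+ cells, 8.59 and 8.88 in CD4+ cells of injected mice and 8.86 and 9.03 in CD4+ cells of naive mice. Both sorted subsets lay above all CD4+ arrays. It was 3.47-fold higher in CD49b+ than in CD4+ cells of injected mice (log2 difference 1.80 ± 0.10, limma adjusted p = 1.21e-06). The difference was 1.59 ± 0.10 in CD25+ against CD4+ cells (adjusted p = 4.15e-06). Between CD49b+ and CD25+ cells the 0.21 ± 0.09 difference was not called (adjusted p = 0.125, 95% interval 0.00 to 0.41), although the 3 CD49b+ values lay above the 3 CD25+ values.

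Slc2a1 encodes GLUT1, the transporter known to be raised at the surface of activated T cells. Its level was 8.82, 8.73 and 8.58 in CD49b+ cells, 8.16, 8.38 and 7.89 in CD25+ cells, 7.94 and 8.45 in CD4+ cells of injected mice and 7.83 and 7.98 in CD4+ cells of naive mice. The CD49b+ arrays were the highest, and the CD25+ arrays overlapped those of CD4+ cells. The difference between CD49b+ and CD4+ cells of injected mice was 0.52 ± 0.17 (limma adjusted p = 0.0285), and the gap to CD25+ cells was 0.57 ± 0.15 (adjusted p = 0.0193). CD25+ and CD4+ cells differed by -0.05 ± 0.17 (adjusted p = 0.841, 95% interval -0.43 to 0.33). The call against CD4+ cells was lost without injected CD4+ replicate 1 (0.26, adjusted p = 0.269), without CD49b+ replicate 1 (0.46, adjusted p = 0.0768) or 2 (0.51, adjusted p = 0.0605), with quantile normalization (0.40, adjusted p = 0.0665) and when its 2 probe sets were averaged (0.44, adjusted p = 0.0614). The call against CD25+ cells did not hold when CD49b+ replicate 1 (0.51, adjusted p = 0.0626) or 2 (0.56, adjusted p = 0.0527) was left out, nor without CD25+ replicate 1 (0.57, adjusted p = 0.0535) or 3 (0.44, adjusted p = 0.0601).

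Hexokinases carry out the first step, and Hk2 is the isoform known to be induced in growing cells, while Hk1 is made in most tissues. Hk2 was 6.41, 6.36 and 6.36 in CD49b+ cells, 6.32, 6.53 and 6.24 in CD25+ cells, 5.26 and 5.17 in CD4+ cells of injected mice and 5.46 and 5.70 in CD4+ cells of naive mice. The 2 subsets overlapped each other, and both lay above all 4 CD4+ arrays. Against CD4+ cells of injected mice, Hk2 was higher by 1.17 ± 0.11 in CD49b+ cells (limma adjusted p = 2.05e-05), which is 2.24-fold. It was higher by 1.15 ± 0.11 in CD25+ cells (adjusted p = 3.81e-05). CD49b+ and CD25+ cells differed by 0.01 ± 0.09 (adjusted p = 0.94), and the 95% interval of this difference ran between -0.20 and 0.22. Hk1 lay between 9.12 and 9.22 in CD49b+ cells, between 8.88 and 9.01 in CD25+ cells, at 8.40 and 8.67 in CD4+ cells of injected mice and at 8.60 and 8.51 in naive ones. It was higher by 0.63 ± 0.10 in CD49b+ cells (adjusted p = 0.000486) and by 0.41 ± 0.10 in CD25+ cells (adjusted p = 0.00789) than in CD4+ cells of injected mice. The CD25+ call of Hk1 was lost without injected CD4+ replicate 1 (0.27, adjusted p = 0.0866).

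Pfkp, the platelet-type phosphofructokinase that lymphocytes also make, was 9.72, 9.63 and 9.63 in CD49b+ cells, 9.10, 9.23 and 9.32 in CD25+ cells, 8.87 and 8.95 in CD4+ cells of injected mice and 9.06 and 9.14 in naive ones. The CD49b+ arrays stood above all others, and the CD25+ arrays overlapped the naive ones. CD49b+ cells exceeded CD4+ cells of injected mice by 0.75 ± 0.09 (limma adjusted p = 9.19e-05) and CD25+ cells by 0.44 ± 0.08 (adjusted p = 0.0022), a call against CD25+ cells that was lost with the mean of its probe sets (0.21, adjusted p = 0.0769). The CD25+ difference to CD4+ cells was 0.31 ± 0.09 (adjusted p = 0.0186). Aldoa, aldolase A, was called higher in both subsets, by 0.65 ± 0.13 in CD49b+ cells (adjusted p = 0.00217) and by 0.40 ± 0.13 in CD25+ cells (adjusted p = 0.0327), with levels of 10.22 to 10.50 in CD49b+ cells, 9.85 to 10.26 in CD25+ cells and 9.64 and 9.72 in CD4+ cells of injected mice. Between CD49b+ and CD25+ cells Aldoa differed by 0.25 ± 0.11 (adjusted p = 0.133), and by 0.25 with a call (adjusted p = 0.0489) when arrays of the 2 subsets with the same replicate number were paired. The CD25+ calls of Pfkp and Aldoa did not hold under several settings. Quantile normalization ended both (0.22, adjusted p = 0.0806 for Pfkp and 0.30, adjusted p = 0.0956 for Aldoa), as did the mean of all probe sets (0.12, adjusted p = 0.313 and 0.32, adjusted p = 0.0698) and a limma fit of only the CD25+ and injected CD4+ arrays (adjusted p = 0.0656 and 0.0685). Of the 5 fits that each left out 1 array, the call was kept in 2 for Pfkp and in 1 for Aldoa, with differences of 0.26 to 0.37 and 0.31 to 0.51, and leaving out injected CD4+ replicate 1 ended both. The other arrays whose removal ended a call were injected CD4+ replicate 2 and CD25+ replicate 3 for Pfkp and injected CD4+ replicate 2, CD25+ replicate 2 and CD25+ replicate 3 for Aldoa.

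Tpi1, triosephosphate isomerase, was 9.26, 9.49 and 9.44 in CD49b+ cells, 8.91, 9.33 and 9.31 in CD25+ cells, 7.61 and 8.09 in CD4+ cells of injected mice and 7.97 and 8.12 in naive ones. No array of either subset overlapped a CD4+ array. Its difference to CD4+ cells of injected mice was 1.55 ± 0.17 in CD49b+ cells (limma adjusted p = 5.71e-05) and 1.33 ± 0.17 in CD25+ cells (adjusted p = 0.000235), or 2.92-fold and 2.52-fold. CD49b+ and CD25+ cells differed by 0.21 ± 0.15 (adjusted p = 0.322, 95% interval -0.12 to 0.55).

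Pgk1, phosphoglycerate kinase, followed another pattern on its main probe set. It was 10.46, 10.55 and 10.65 in CD49b+ cells, 9.74, 9.98 and 10.17 in CD25+ cells, 9.79 and 9.94 in CD4+ cells of injected mice and 9.89 and 10.05 in naive ones. The CD49b+ arrays lay above all others, which overlapped. CD49b+ cells exceeded CD4+ cells of injected mice by 0.69 ± 0.13 (limma adjusted p = 0.00147) and CD25+ cells by 0.59 ± 0.11 (adjusted p = 0.00359). The CD25+ difference to CD4+ cells was 0.10 ± 0.13 (adjusted p = 0.553, 95% interval -0.18 to 0.39). On its second probe set Pgk1 was called higher in CD25+ than in CD4+ cells (0.68 ± 0.15, limma adjusted p = 0.00789), so this pattern depends on the probe set.

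Ldha encodes the M subunit of lactate dehydrogenase, which favours the making of lactate. It was 11.30, 11.34 and 11.52 in CD49b+ cells, 10.57, 10.66 and 10.99 in CD25+ cells, 10.57 and 10.51 in CD4+ cells of injected mice and 10.57 and 10.61 in naive ones. All CD49b+ arrays were higher than all others, and of the CD25+ arrays replicate 3 was the highest. Ldha was 1.80-fold higher in CD49b+ than in CD4+ cells of injected mice (log2 difference 0.84 ± 0.12, limma adjusted p = 0.000403). Against CD25+ cells it was higher by 0.65 ± 0.11 (adjusted p = 0.00191). CD25+ and CD4+ cells differed by 0.20 ± 0.12 (adjusted p = 0.242, 95% interval -0.08 to 0.48).

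**Figure D2:**
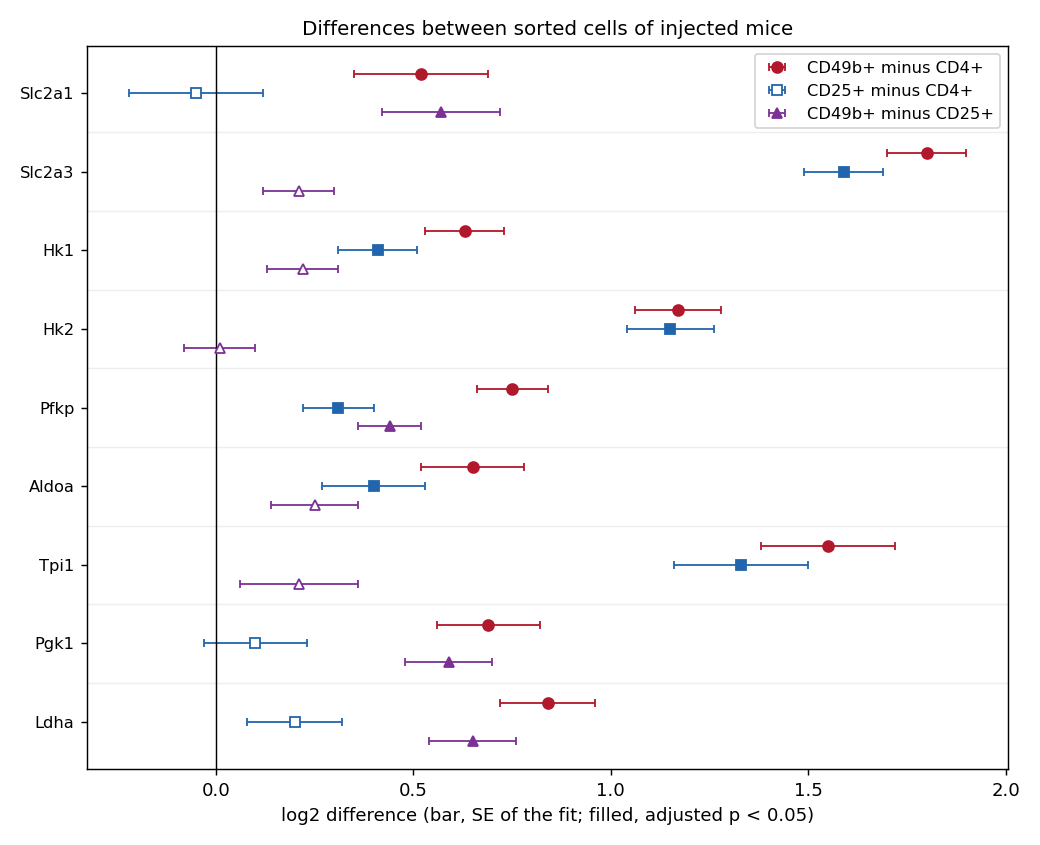
Log2 difference of each gene (horizontal axis) between CD49b+ and CD4+ cells, CD25+ and CD4+ cells, and CD49b+ and CD25+ cells of injected mice, with the standard error of the fit, filled where the adjusted p is under 0.05. All 9 circles for CD49b+ against CD4+ cells are filled, and the triangles for CD49b+ against CD25+ cells are filled for Slc2a1, Pfkp, Pgk1 and Ldha.

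Other probe sets of the same genes were tested beside the main ones, with p-values adjusted over all probe sets tested. Of 18 probe sets with enough signal, 15 had a higher call in CD49b+ against CD4+ cells (23.4% of all 24816 probe sets tested), 12 in CD25+ against CD4+ cells (15.6%) and 6 in CD49b+ against CD25+ cells (12.7%), while none had a lower call in any of these 3 comparisons (27.6%, 19.7% and 10.2% of all probe sets). The second probe set of Slc2a1 gave the same direction as the first in CD49b+ cells without a call, at 0.36 ± 0.20 against CD4+ cells (adjusted p = 0.164) and 0.57 ± 0.18 against CD25+ cells (adjusted p = 0.0517). The second probe set of Pgk1 was called higher in CD25+ than in CD4+ cells, by 0.68 ± 0.15 (adjusted p = 0.00789), unlike the main one. In CD49b+ against CD25+ cells both probe sets of Pgk1 were called higher. A second, dimmer probe set of Pfkp differed by -0.10 ± 0.19 in CD49b+ and by -0.07 ± 0.19 in CD25+ against CD4+ cells, and was not called. Of the 4 probe sets of Aldoa, 1 missed the threshold in CD49b+ against CD4+ cells (0.42 ± 0.16, adjusted p = 0.0587), and another was called higher in CD49b+ than in CD25+ cells (0.38 ± 0.10, adjusted p = 0.0213). Slc2a3 had a second bright probe set with differences from CD4+ cells of 2.0 ± 0.12 in CD49b+ cells and 1.78 ± 0.12 in CD25+ cells, and 2 others under the median of every array, which were not tested. Both probe sets of Tpi1 and both of Hk1 were called higher in CD49b+ and in CD25+ than in CD4+ cells. The second Hk1 probe set lay above the array median only on the 6 arrays of these subsets. It passed the filter on dim signals through them alone, so its calls are no separate support. The names of the main probe sets of Slc2a3, Aldoa and Tpi1 carry the suffixes that the maker of the array uses where probes can match other transcripts too. So do those of the second Pgk1 probe set, the second bright one of Slc2a3 and the other ones of Aldoa. The main probe set of Pgk1 and the 2 dim ones of Slc2a3 carry no such suffix.

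**Figure D3:**
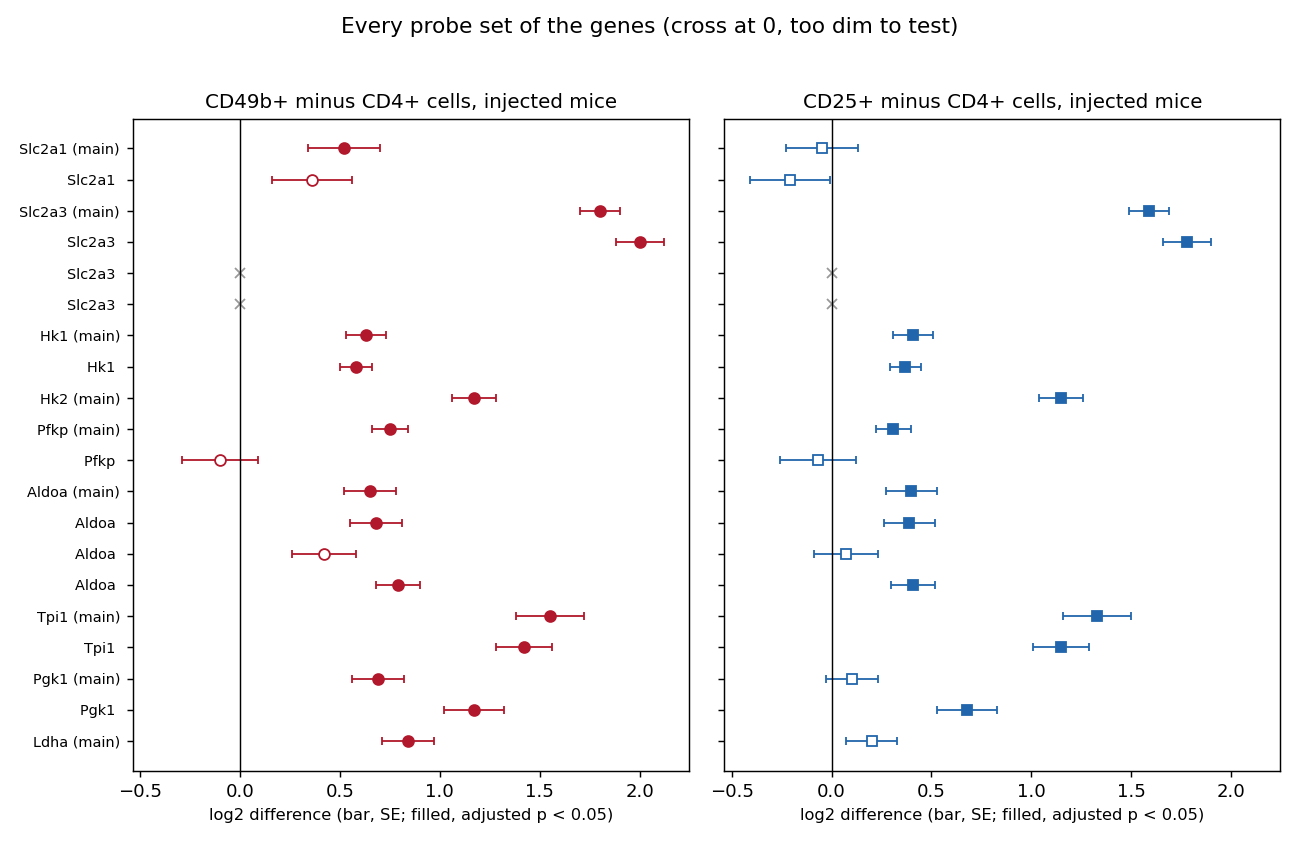
Log2 difference (horizontal axis) with its standard error for each of the 20 probe sets, in CD49b+ against CD4+ cells (left) and CD25+ against CD4+ cells (right) of injected mice, filled where the adjusted p over all probe sets is under 0.05, with a cross at 0 for the 2 Slc2a3 probe sets too dim to test. The open symbols in the left panel belong to second probe sets of Slc2a1, Pfkp and Aldoa.

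The balance between isoforms was followed as the log2 ratio of Hk2 to Hk1 and of Slc2a3 to Slc2a1 on each array. Only differences of these ratios between groups are given, since levels of different probe sets cannot be set against each other. The Hk2 to Hk1 ratio was higher by 0.54 in CD49b+ and by 0.74 in CD25+ cells than in CD4+ cells of injected mice. The Slc2a3 to Slc2a1 ratio was higher by 1.28 in CD49b+ and by 1.64 in CD25+ cells. In all 4 cases the arrays of the 2 groups did not overlap, with an exact two-sided permutation p of 0.1, the smallest that 3 against 2 arrays allow. In CD49b+ against CD25+ cells the ratios differed by -0.20 for Hk2 to Hk1 and -0.36 for Slc2a3 to Slc2a1, with an exact p of 0.1 each, the smallest for 3 against 3 arrays. Injected against naive CD4+ cells gave -0.35 and -0.50, with an exact permutation p of 0.333 each, the smallest for 2 against 2 arrays. The Hk2 to Hk1 ratio of naive replicate 2 lay just under those of the 3 CD49b+ arrays, so the size of that difference depends on the CD4+ arrays used. When all probe sets of a gene were averaged, which brings in the 2 dim ones of Slc2a3, the Slc2a3 to Slc2a1 differences to CD4+ cells became 0.50 in CD49b+ and 0.90 in CD25+ cells.

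Over the 10 arrays, which fall into groups that share subsets and injections, Slc2a3 correlated best among these genes with Tpi1 (Pearson r = 0.98) and Hk2 (0.97), and Pgk1 with Ldha (0.97) and Pfkp (0.93). Hk2 and Pgk1 had r = 0.55. Among all genes tested, those most like Slc2a3 were Socs2 (r = 0.9945), Chek1 (0.994) and Aopep (0.9937), and 309 genes had r over 0.95 with it. Those most like Hk2 were Ndfip1 (0.991), Rpia (0.9883) and Sh3bgrl (0.9865), and those most like Ldha were Cap1 (0.9872), Cdc25b (0.9871) and Ccr2 (0.9846). For Slc2a1 they were Pstpip1 (0.9746), Nrg2 (0.9694) and Rmdn3 (0.9593), out of 4 genes with r over 0.95.

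None of the 9 genes was called in CD4+ cells of injected against naive mice by limma, with a median difference of -0.13 and 1 of 9 at an unadjusted p under 0.05. In this comparison 0.0272% of all genes were called higher and 1.36% lower. The gene with an unadjusted p under 0.05 was Hk2, at 5.26 and 5.17 in injected and 5.46 and 5.70 in naive mice (-0.37 ± 0.12, adjusted p = 0.196, 95% interval -0.63 to -0.11). Slc2a1 differed by 0.29 ± 0.19 (adjusted p = 0.619), and the other 7 by -0.21 to -0.02. The groups did not overlap for 4 of the 9 genes, where 48.5% of all genes tested did not overlap. With 2 arrays a group, the 95% intervals reach 0.71 for Slc2a1 and -0.60 for Tpi1. The naive arrays were also those with the highest B cell and myeloid marker averages. Members of the B cell list differed. H2-Aa, Cd74 and Cd22 were highest on the naive arrays, at means of 11.03, 8.75 and 7.66. Cd79b averaged 4.67 there, against 4.42 in injected CD4+, 5.38 in CD49b+ and 5.95 in CD25+ cells. Of 5 B cell markers tested, 3 were called lower and 0 higher in injected than in naive CD4+ cells.

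Of 19 other glycolytic enzymes, 11 were tested. In CD49b+ against CD4+ cells of injected mice 4 were called higher and 3 lower, with a median of 0.07, and in CD25+ against CD4+ cells 6 higher and 1 lower, with a median of 0.29. Of all genes tested, 29.9% were called higher and 23.5% lower in the first comparison, and 20.8% and 17.8% in the second. Gapdh, the step before Pgk1, was higher by 0.83 ± 0.15 in CD49b+ (limma adjusted p = 0.00149) and by 0.63 ± 0.15 in CD25+ cells (adjusted p = 0.00997), and the CD25+ call was lost without injected CD4+ replicate 1 (0.43, adjusted p = 0.101). Pkm, pyruvate kinase M, was higher by 0.65 ± 0.09 and 0.60 ± 0.09 in CD49b+ and CD25+ cells (adjusted p = 0.000375 and 0.000904). Bpgm, which makes and breaks 2,3-bisphosphoglycerate, was 8.62, 8.41 and 8.23 in CD49b+ cells, 7.24, 7.43 and 7.14 in CD25+ cells and 6.57 and 6.73 in CD4+ cells of injected mice. Its level in CD49b+ cells exceeded that in CD25+ cells by 1.15 ± 0.12 (adjusted p = 8.22e-05). Pfkl, the liver-type phosphofructokinase, was lower in both subsets against CD4+ cells, with differences of -0.77 ± 0.10 in CD49b+ and -0.47 ± 0.10 in CD25+ cells (adjusted p = 0.000163 and 0.00415), on 1 of its 3 probe sets, the others not being called, and the CD25+ call was lost with their mean (-0.15, adjusted p = 0.121).

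Ldhb and Eno3 were the enzymes in which the 2 subsets went opposite ways. Ldhb encodes the H subunit of lactate dehydrogenase, which favours the making of pyruvate. It was 6.39, 6.58 and 6.40 in CD49b+ cells, 8.59, 8.87 and 8.47 in CD25+ cells, 7.72 and 7.98 in CD4+ cells of injected mice and 7.89 and 7.74 in naive ones. All CD49b+ arrays were lower, and all CD25+ arrays higher, than the 4 CD4+ arrays. Ldhb was lower in CD49b+ than in CD4+ cells of injected mice (log2 difference -1.40 ± 0.13, limma adjusted p = 2.66e-05). CD25+ cells exceeded CD4+ cells by 0.79 ± 0.13 (adjusted p = 0.00135), and CD49b+ against CD25+ cells gave -2.19 ± 0.12 (adjusted p = 1.52e-06), which is 4.55-fold lower. Its second probe set gave -1.65, 0.81 and -2.46 in these comparisons. Eno3, the muscle-type enolase, was 7.14, 7.12 and 6.77 in CD49b+ cells, 9.56, 9.53 and 9.39 in CD25+ cells and 7.46 and 7.49 in CD4+ cells of injected mice. It was 5.59-fold lower in CD49b+ than in CD25+ cells (-2.48 ± 0.11, adjusted p = 5.53e-07). Against CD4+ cells Eno3 was higher by 2.02 ± 0.12 in CD25+ cells (adjusted p = 2.48e-06) and lower in CD49b+ cells, at -0.46 ± 0.12 (adjusted p = 0.00855), a CD49b+ call lost with arrays centred on their medians (-0.27, adjusted p = 0.0771).

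**Figure D4:**
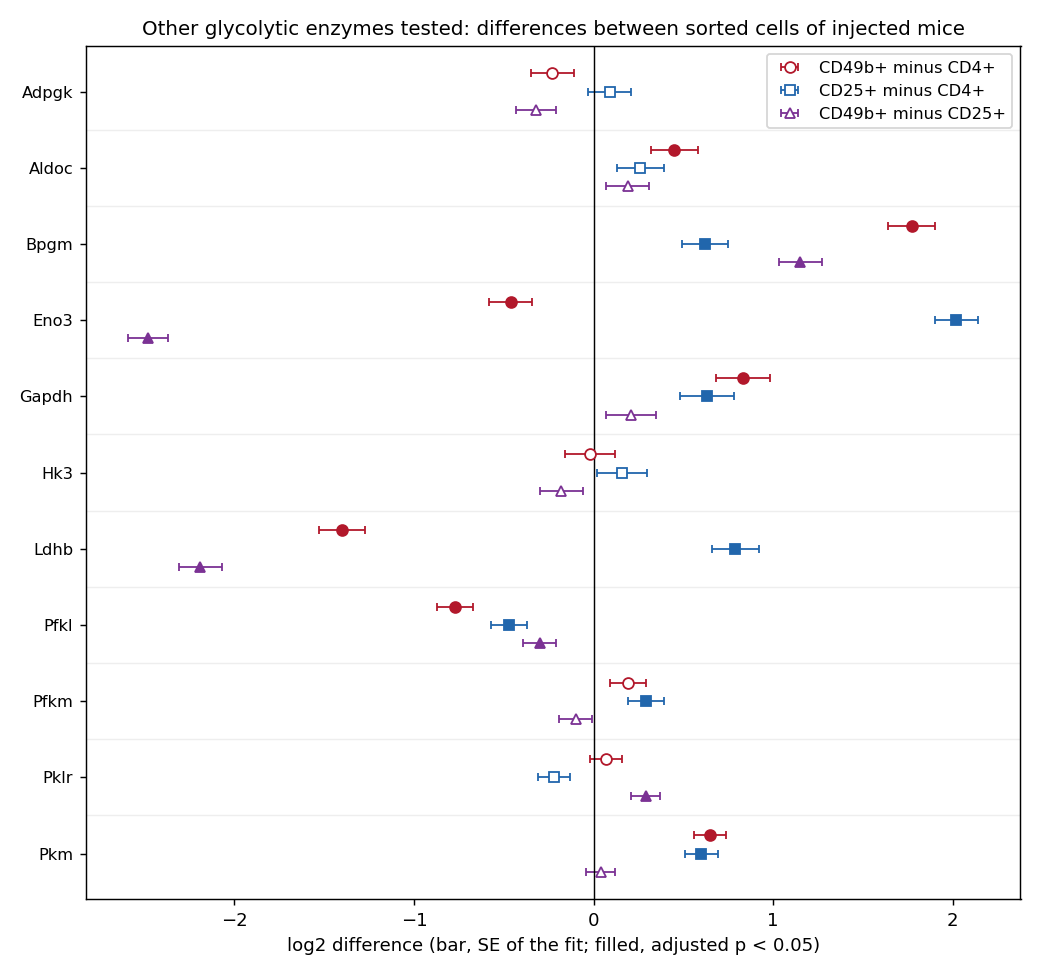
Log2 difference (horizontal axis) with its standard error for the 11 other glycolytic enzymes tested, in the 3 comparisons between sorted cells of injected mice, filled where the adjusted p is under 0.05. Ldhb and Eno3 have CD49b+ minus CD4+ values under 0 and CD25+ minus CD4+ values above 0, whereas Bpgm, Gapdh and Pkm are above 0 in both.

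Transport steps on either side of glycolysis were next. Of 9 other hexose transporters 4 were tested, and Slc2a4, the insulin-responsive transporter GLUT4, was lower in both CD49b+ and CD25+ cells than in CD4+ cells of injected mice, at -1.01 ± 0.10 in each (limma adjusted p = 3.41e-05 and 5.73e-05). Slc2a8 was higher in CD49b+ than in CD25+ cells (0.43 ± 0.09, adjusted p = 0.004). Of 3 lactate and pyruvate transport genes tested, 2 were called higher in both subsets. The shares of all genes called higher were 29.9% in CD49b+ and 20.8% in CD25+ cells against CD4+ cells of injected mice. Slc16a1, the lactate transporter MCT1, was 8.71, 8.84 and 8.76 in CD49b+ cells, 8.24, 8.66 and 8.31 in CD25+ cells and 7.55 and 8.17 in CD4+ cells of injected mice. In CD49b+ cells it exceeded the CD4+ level by 0.91 ± 0.18 (adjusted p = 0.00208). Its CD25+ difference of 0.54 ± 0.18 (adjusted p = 0.0359) lost its call without injected CD4+ replicate 1 (0.23, adjusted p = 0.328), without CD25+ replicate 2 (0.42, adjusted p = 0.0963) with quantile normalization (0.46, adjusted p = 0.0717), with the mean of its probe sets (0.27, adjusted p = 0.188) and in the fit of only the CD25+ and injected CD4+ arrays (adjusted p = 0.0948). Bsg, the chaperone basigin that MCT1 needs at the surface, was higher by 1.07 ± 0.18 in CD49b+ cells (adjusted p = 0.000857) and by 0.79 ± 0.18 in CD25+ cells (adjusted p = 0.00677), and its CD25+ call was lost without injected CD4+ replicate 1 (0.62, adjusted p = 0.0687).

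Branches that share intermediates with glycolysis were described by the same test. Of 6 pentose phosphate pathway genes tested, 4 were called higher and 0 lower in CD49b+ against CD4+ cells of injected mice, and 5 higher and 0 lower in CD25+ cells against those CD4+ cells, with medians of 0.69 and 0.58. For these counts and those below, the shares of all genes called higher and lower were 29.9% and 23.5% in CD49b+ and 20.8% and 17.8% in CD25+ cells. Pgd, 6-phosphogluconate dehydrogenase, was higher by 1.08 ± 0.10 in CD49b+ and 0.78 ± 0.10 in CD25+ cells (limma adjusted p = 1.93e-05 and 0.000229). Tkt, transketolase, was higher by 0.88 ± 0.09 and 0.74 ± 0.09 (adjusted p = 4.91e-05 and 0.00024). Of 8 genes of pyruvate dehydrogenase and its kinases and phosphatases, 5 were called higher and 1 lower in CD49b+ cells, and 1 higher and 1 lower in CD25+ cells. With centred arrays the CD25+ counts were 5 higher and 1 lower, where all genes gave 3956 higher and 1077 lower instead of 2297 and 1964. The lower one was Pdk1, a kinase that holds pyruvate dehydrogenase inactive, at -0.81 ± 0.12 in CD49b+ and -0.80 ± 0.12 in CD25+ cells (adjusted p = 0.000356 and 0.000605). Among 4 genes that set fructose 2,6-bisphosphate, an activator of phosphofructokinase, Pfkfb4 was lower than in CD4+ cells, at -0.56 ± 0.07 in CD49b+ and -0.40 ± 0.07 in CD25+ cells (adjusted p = 0.000207 and 0.00246).

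Of 14 HIF-1 target genes outside glycolysis that were tested, 5 were called higher and 5 lower in CD49b+ against CD4+ cells of injected mice, 4 higher and 5 lower in CD25+ cells against those CD4+ cells, and 6 higher and 2 lower in CD49b+ against CD25+ cells. The medians were 0.10, -0.01 and 0.13. For comparison, the higher and lower calls made up 29.9% and 23.5% of all genes for CD49b+ over CD4+ cells, 20.8% and 17.8% for CD25+ over CD4+ cells, 17.5% and 12.4% for CD49b+ over CD25+ cells. The balance moved with the scaling, and so did that of all genes. With each array centred on its median, 7 were higher and 2 lower in CD49b+ cells, and 5 and 2 in CD25+ cells. All genes then gave 4890 higher and 1358 lower, and 3956 and 1077, instead of 3300 and 2592, and 2297 and 1964. With quantile normalization the counts were 5 and 3, and 4 and 2, where all genes gave 3188 and 2264, and 2200 and 1667. Pdk1 belongs to the list of HIF-1 targets as well. Ero1a, an oxidase of the endoplasmic reticulum, was 9.62, 9.18 and 9.62 in CD49b+ cells, 8.15, 8.26 and 8.64 in CD25+ cells and 7.61 and 7.32 in CD4+ cells of injected mice. In CD49b+ cells it exceeded its CD4+ level by 2.01 ± 0.18 (limma adjusted p = 1.77e-05) and its CD25+ level by 1.12 ± 0.16 (adjusted p = 0.000567). Egln3 encodes a prolyl hydroxylase that marks HIF proteins for breakdown. It exceeded its CD4+ level by 2.02 ± 0.22 in CD49b+ cells (adjusted p = 7.1e-05). In CD25+ cells the difference was 1.13 ± 0.22 (adjusted p = 0.00349). The Egln3 levels in CD4+ cells of injected mice, 4.53 and 4.77, lay under the medians of those arrays. Egln3 passed the filter on dim signals through arrays of other groups, so both differences are set against a dim CD4+ level. Higd1a, a mitochondrial protein, rose in CD49b+ cells over CD4+ cells (0.94 ± 0.14, adjusted p = 0.00049) and over CD25+ cells (0.91 ± 0.13, adjusted p = 0.000554), and its CD25+ difference to CD4+ cells was 0.03 ± 0.14 (adjusted p = 0.895). Bnip3, a mitophagy receptor, went the other way, at 5.40, 5.31 and 5.43 in CD49b+ cells, 6.06, 6.56 and 6.15 in CD25+ cells and 5.15 and 5.25 in CD4+ cells of injected mice, with CD49b+ against CD25+ cells at -0.88 ± 0.12 (adjusted p = 0.000579). The collagen prolyl hydroxylase subunit P4ha2 was higher in CD49b+ than in CD25+ cells by 0.89 ± 0.09 (adjusted p = 9.06e-05). It lay above the array median only on the 3 CD49b+ arrays and passed the filter on dim signals through them alone.

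Of 8 transcription factor genes tested that are known to act on glycolytic genes, 3 were called higher and 4 lower in CD49b+ against CD4+ cells of injected mice, and 2 higher and 0 lower in CD25+ cells against those CD4+ cells. The shares of all genes tested were 29.9% higher and 23.5% lower for CD49b+ cells, and 20.8% and 17.8% for CD25+ cells. With centred arrays the CD49b+ counts were 3 higher and 1 lower, where all genes gave 4890 higher and 1358 lower instead of 3300 and 2592. Hif1a, the oxygen-regulated subunit of HIF-1, was 11.06, 11.09 and 11.01 in CD49b+ cells, 11.05, 11.09 and 10.89 in CD25+ cells, 10.38 and 10.44 in CD4+ cells of injected mice and 10.72 and 10.85 in naive ones. It was higher by 0.64 ± 0.09 in CD49b+ and 0.60 ± 0.09 in CD25+ cells than in CD4+ cells of injected mice (limma adjusted p = 0.000223 and 0.000547). A dim second Hif1a probe set went the other way, at -0.40 and -0.31, and both calls were lost when the 2 probe sets were averaged (0.12 and 0.14). Epas1, which encodes HIF-2 alpha, was 9.80, 9.73 and 10.03 in CD49b+ cells, 6.26, 6.76 and 6.94 in CD25+ cells, 6.17 and 6.77 in CD4+ cells of injected mice and 6.67 and 6.63 in naive ones. The 3 CD49b+ arrays stood far above all others, by 3.38 ± 0.21 over injected CD4+ cells (adjusted p = 2.14e-06) and 3.20 ± 0.19 against CD25+ cells (adjusted p = 2.74e-06). Its second probe set gave 1.83 and 1.90. Irf4, a factor induced by T cell receptor signals, was higher by 1.55 ± 0.24 in CD49b+ and 1.57 ± 0.24 in CD25+ cells (adjusted p = 0.000553 and 0.000812).

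Myc, a driver of glycolytic gene expression in T cell activation, was 8.76, 8.69 and 8.21 in CD49b+ cells, 9.34, 9.56 and 9.13 in CD25+ cells, 9.17 and 9.42 in CD4+ cells of injected mice and 8.86 and 8.92 in naive ones. It was lower in CD49b+ than in CD4+ cells of injected mice (-0.74 ± 0.18, limma adjusted p = 0.00579), a call lost without injected CD4+ replicate 2 (-0.61, adjusted p = 0.0527), and lower than in CD25+ cells (-0.80 ± 0.16, adjusted p = 0.00404). Txnip, an inhibitor of glucose uptake, was 11.30, 11.08 and 11.31 in CD49b+ cells, 11.39, 11.51 and 11.43 in CD25+ cells, 11.90 and 11.85 in CD4+ cells of injected mice and 11.43 and 11.43 in naive ones. Both subsets were lower than CD4+ cells of injected mice, at -0.64 ± 0.09 in CD49b+ and -0.43 ± 0.09 in CD25+ cells (adjusted p = 0.000284 and 0.00438). Injected against naive CD4+ cells gave 0.44 ± 0.10 (adjusted p = 0.0705), which was called with array weights (adjusted p = 0.0216) and with a trended robust prior (adjusted p = 0.0262). Akt1 encodes a kinase that drives glucose uptake. Its level in CD49b+ cells exceeded that in CD4+ cells by 0.98 ± 0.11 (limma adjusted p = 6.33e-05) and that in CD25+ cells by 0.52 ± 0.10 (adjusted p = 0.00278). Arrdc4, a relative of Txnip, was lower in CD49b+ than in CD25+ cells (-1.47 ± 0.19, adjusted p = 0.000293).

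**Figure D5:**
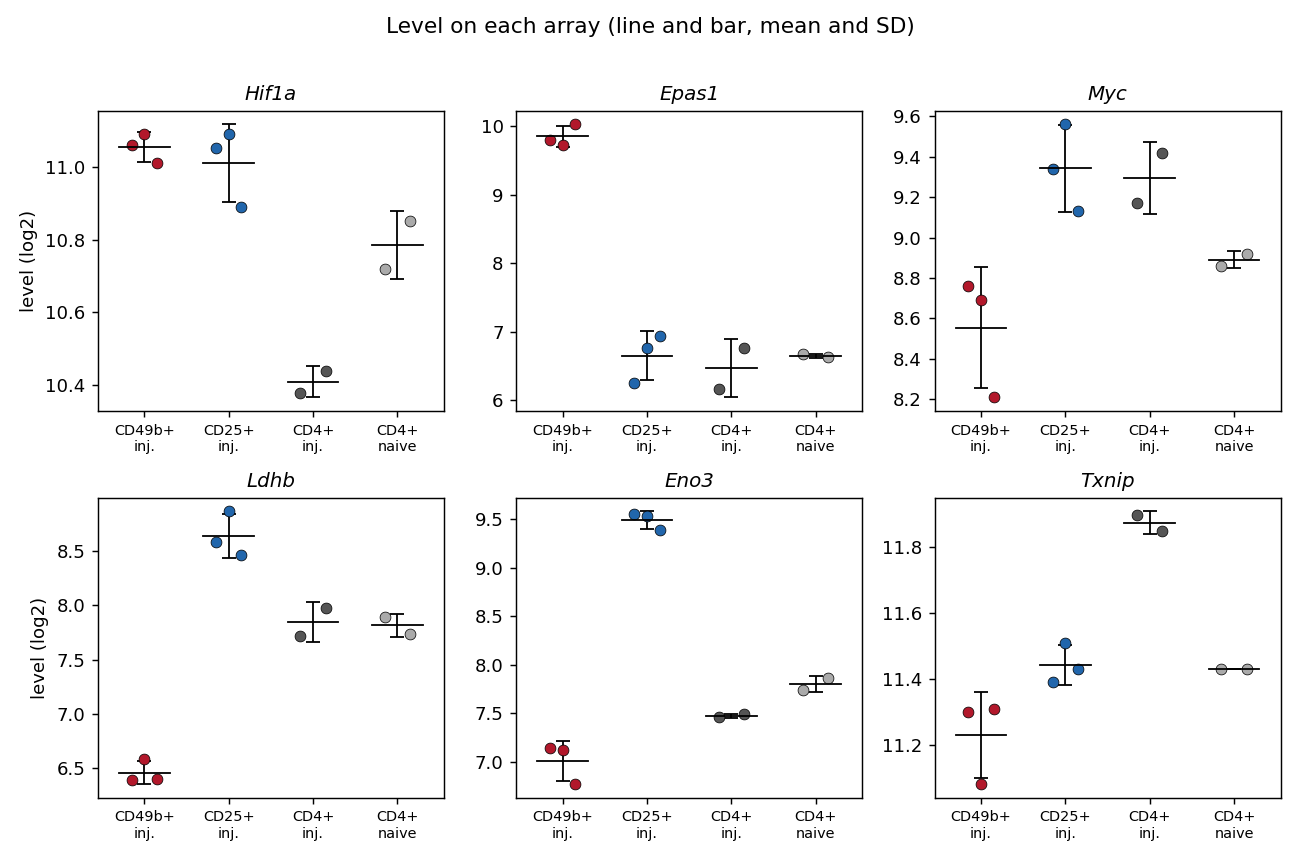
Level (deposited log2 value, vertical axis, not starting at 0) of 3 transcription factors, the enzymes Ldhb and Eno3, and Txnip on each of the 10 arrays, with the mean and SD of each group. The CD49b+ points of Epas1 lie above all others, those of Ldhb lie below all others, and the CD25+ points of Ldhb and Eno3 lie above all others.

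Cell cycle genes moved with the same groups. Of 11 tested, 10 were called higher and 0 lower in CD49b+ against CD4+ cells of injected mice, 11 higher in CD25+ against CD4+ cells, and 4 higher and 0 lower in CD49b+ against CD25+ cells, with medians of 3.60, 2.42 and 0.95. Of all genes tested, 29.9%, 20.8% and 17.5% were called higher in these comparisons, and 23.5%, 17.8% and 12.4% lower. Mki67, a marker of dividing cells, was 10.25, 10.44 and 10.82 in CD49b+ cells, 9.07, 9.49 and 9.95 in CD25+ cells, 6.15 and 6.48 in CD4+ cells of injected mice and 7.18 and 7.62 in naive ones. Their part in the differences of the glycolytic genes was not tested.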

How the data were processed

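The deposited table holds log2 expression values of 45141 probe sets on 10 Affymetrix mouse arrays, which, per the submitters' processing notes, the authors made with GCRMA in version 1.2.1 of Affymetrix's Expression Console. GCRMA subtracts background, normalizes and summarises probes, and the settings and the arrays normalized together are not stated, so that offsets between groups can come partly from it. Sorted cells gave 100 ng of RNA for labelling, per the labels' protocols.

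From these values, 104 control probe sets were removed, and 28898 probe sets with a single gene symbol in the platform annotation gave 17097 genes, each by its probe set with the highest mean. The 11037 genes with at least 2 arrays above the 50th percentile of their array entered 1 fit of the 4 group means (lmFit and eBayes, limma 3.58.1, R 4.3.3, 6 residual degrees of freedom), two-sided, with Benjamini-Hochberg adjustment within each comparison. The fit was tested on simulated data. Arrays carry no depth, and their number limits the precision. No 2 arrays held the same values.

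The 10 genes, the lists of other genes and the tests were chosen with earlier results of these data known. Named besides the 10 genes are Gapdh, Pkm, Hif1a, Myc and Txnip in each case, the called members of a list with the greatest change (at most 6 per list and comparison, of which only some are named), the sort markers, and the 3 genes most correlated with Slc2a1, Slc2a3, Hk2 and Ldha. Of the other lists, CD8 T cell, neutrophil, platelet and erythroid markers averaged 4.30 to 5.30 on all arrays.

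Replicate numbers come from the labels. Deviations from the group means of CD49b+ and CD25+ arrays with the same number correlated at 0.16, 0.37 and 0.64. With injected CD4+ arrays of the same number, the values were 0.09 and 0.52 for CD49b+ and 0.24 and 0.53 for CD25+ arrays. Arrays with unlike numbers were not compared, so these values do not show that the numbers pair the arrays. Other alternatives are given in the closing section. Promoter windows were the 250 bases before the starts in RefSeq (GRCm38.p6). Gene values for Pgam1, whose probe set is shared, were left out.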

Additional observations from a re-analysis of the deposited data

Results flagged for a closer look

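Ldhb, Eno3 and P4ha2 had opposite calls in the 2 subsets, each set against the same CD4+ cells of injected mice, and the direct test between the subsets was called for each by limma. CD49b+ against CD25+ cells gave -2.19 for Ldhb (adjusted p = 1.52e-06), with all 3 CD49b+ arrays below and all 3 CD25+ arrays above the CD4+ arrays, and its second probe set gave -2.46. For Eno3 the value was -2.48 (adjusted p = 5.53e-07), and this gene had 1 probe set. For P4ha2 it was 0.89 (adjusted p = 9.06e-05), with levels of 5.07, 5.26 and 5.26 in CD49b+ cells and 4.16, 4.46 and 4.30 in CD25+ cells, and 4.62 and 4.69 in CD4+ cells of injected mice. The CD25+ values of P4ha2 lay under the array medians of 4.64 to 4.65. Its CD25+ against CD4+ difference of -0.35 (adjusted p = 0.0237) lost its call with quantile normalization (-0.17) and with arrays centred on their medians (-0.19), with only the arrays of the 2 groups (-0.35, adjusted p = 0.0597) and with all 4 CD4+ arrays (-0.23), and also without injected CD4+ replicate 1 (-0.39) or 2 (-0.31) and without CD25+ replicate 1 (-0.28) or 3 (-0.35).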

How the results depend on the processing

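Of the calls for the 9 genes, 8 of 9 in CD49b+ against CD4+ cells, 3 of 6 in CD25+ against CD4+ cells and 3 of 4 in CD49b+ against CD25+ cells were kept whichever array was left out. Without 1 array, 3 to 6 of the genes were called higher in CD25+ cells, the 3 being without injected CD4+ replicate 1. The Slc2a3 to Slc2a1 ratio differences moved to 0.50 and 0.90 with the mean of probe sets, as given above. Among the 9 genes, 8 were called in CD49b+ against CD4+ cells with quantile normalization and with the mean of probe sets. In CD25+ against CD4+ cells, 4 were called with quantile normalization and with only the arrays of the 2 groups, 5 with the mean of probe sets and 7 with centred arrays. The counts over all genes moved more. In CD49b+ against CD4+ cells, the main counts of 3300 higher and 2592 lower became 5597 lower with no filter, 1230 lower with the 70th percentile, 1358 lower with centred arrays, and 5797 higher and 6842 lower with every probe set tested. In CD25+ against CD4+ cells, 2297 higher and 1964 lower became 4981 lower with no filter, 699 lower with the 70th percentile, 3956 higher and 1077 lower with centred arrays, 3870 higher and 4899 lower with every probe set, and 1249 to 1919 lower without 1 array. In CD49b+ against CD25+ cells, 1926 higher and 1371 lower became 3140 and 2537 with every probe set. In injected against naive CD4+ cells, 3 higher and 150 lower became 7 higher with quantile normalization and with the trended robust prior, 5 with the mean of probe sets, 6 with every probe set, 26 higher and 302 lower with array weights, 57 higher and 320 lower with the replicate block, 0 and 0 with only these 4 arrays, and 0 to 2 higher and 16 to 114 lower without 1 array. The cause was not tested, apart from the fewer or more features and arrays that some of these settings use.

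Some differences changed sign. In CD25+ against CD4+ cells, Slc2a1 (-0.05) became 0.11 with centred arrays, 0.09 with all 4 CD4+ arrays, 0.05 with the replicate block and -0.30 to 0.20 without 1 array. Pgk1 (0.10) became -0.01 and Myc (0.05) -0.03 with quantile normalization, and Myc was -0.08 to 0.18 without 1 array. In CD49b+ against CD25+ cells, Hk2 (0.01) was -0.05 to 0.10 and Hif1a (0.04) -0.01 to 0.08 without 1 array, and Hif1a was -0.02 with the mean of probe sets. With that mean, Tigar (0.36) became -0.07 and Stk11 (0.31) -0.31 in CD49b+ against CD4+ cells, where Stk11 was called in both directions (adjusted p = 0.0152 and 0.0157). In injected against naive cells, Hk1 (-0.02) was -0.16 to 0.12, Tpi1 (-0.19) -0.44 to 0.05 and Pkm (-0.06) -0.17 to 0.05 without 1 array. New calls appeared for Txnip in CD49b+ against CD25+ cells with the trended robust prior (-0.21, adjusted p = 0.0353) and in injected against naive cells as given above, for Hif1a in injected against naive cells with array weights (-0.37, adjusted p = 0.0473), for Pgk1 (0.39) in CD25+ against CD4+ cells and Hk1 in CD49b+ against CD25+ cells with the mean of probe sets, and for Ldha (0.36) in CD25+ against CD4+ cells with centred arrays, while Pfkp in CD49b+ against CD25+ cells lost its call with the mean of probe sets (0.21).

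With the replicate number as a block over all arrays, Aldoa (0.25, adjusted p = 0.0271) was also called higher in CD49b+ than in CD25+ cells. With the block within these 6 arrays only, an alternative added after the data were seen, 5 of the 9 genes were called, Aldoa again being the fifth (0.25, adjusted p = 0.0489). The block changed no other call among the 9 genes, and of the other genes named it changed that of Hif1a in injected against naive CD4+ cells (-0.37, adjusted p = 0.0494). Arrays of injected and naive CD4+ cells with the same number correlated at -0.21 and -0.21, and their numbers do not pair them by the labels. Where leaving out an array left 1 in a group, the lone array was taken to have the spread of the remaining groups.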
